A study of Mus musculus with 39 samples.

Results

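The lungs of 5 mice restrained without smoke for 12 weeks (12 week sham) were compared with those of 5 mice restrained without smoke for 6 weeks (6 week sham). The arrays were chosen by their labels alone, and they are 10 of the 39 arrays of a study of mainstream tobacco smoke (MTS). In it, other mice breathed smoke for 6 or 12 weeks, with or without a break of 6 weeks. Further sham mice also had such a break (break sham). All mice were male C57BL/6 × CBA F1 hybrids, 8 to 10 weeks old at the start, so 12 week sham mice were 20 to 22 weeks old at sampling and 6 week sham mice 14 to 16 weeks. By their labels both groups were placed in restrainers without smoke, and all were taken 3 h after exposure. The array of 1 mouse, 6 week sham m2, goes against that label in its AhR-responsive genes. Age and weeks of restraint differ together between the groups and cannot be told apart. RNA came from the upper part of the left lung lobe of each mouse, after lavage of the other lung by the study's methods, and each array held 1 mouse. The mice of each group are numbered m1 to m5 here, and equal numbers in the groups do not mark a pair.

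Each array gives, per probe, the log2 ratio of the lung signal to that of a common reference RNA, and the reference cancels when groups are compared. Log2 fold changes below are 12 week sham minus 6 week sham from 1 limma model of all arrays, with the sequence of exposure dates in the labels (5 runs of consecutive dates) as a block, and a probe was called where its Benjamini-Hochberg adjusted p was under 0.05. The median Cy5 signal per 12 week sham array lay between 268 and 1309.25, which is 2.41 to 6.62 times the local background. Per 6 week sham array it lay between 291 and 1532, or 2.20 to 8.94 times that background. The share of probes above the negative controls was between 72.2% and 90.5% for 12 week sham, against 66.9% and 90.5% as the extremes for 6 week sham, and none of these 3 measures differed beyond its spread (two-sided exact permutation p = 0.825, 0.706 and 0.532, with 0.00794 the smallest this design allows).

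Lung RNA is a mixture. Thin alveolar type I cells form the surface for gas exchange, type II cells make surfactant, club and ciliated cells line the airways, a dense bed of endothelium carries the blood, and resident macrophages and dendritic cells sample what is inhaled. In mice the pulmonary veins also carry a sleeve of cardiac muscle into the lung. Restraint is a stressor that raises adrenal glucocorticoids, which act through the receptor Nr3c1 on genes such as metallothioneins, and the same hormones act on the clock genes of peripheral tissues, in which Arntl and Clock drive the Per and Cry repressors of their own activity. In bulk RNA, fewer cells of a type and less RNA per cell cannot be told apart.

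Before the comparison, 3 kinds of array stood apart. In 6 week sham m2, genes that smoke is known to induce were high. Cyp1a1, the cytochrome P450 that the aryl hydrocarbon receptor (AhR) induces, had a log2 ratio of 6.46 there, against 1.03 to 2.81 in the other 9 sham arrays. Cyp1b1, a second AhR target, had 2.00, against -1.74 to -0.49 in the other 9. Ahrr, the repressor of the AhR, was at 2.52 and Aldh3a1, an aldehyde dehydrogenase, at 1.25, both also the highest of the 10. In the 9 arrays of 12 and 6 week smoke, the log2 ratio was 5.07 to 8.06 for Cyp1a1, 1.47 to 2.32 for Cyp1b1, 0.61 to 2.28 for Ahrr and 0.909 to 2.11 for Aldh3a1. The array labelled 6 week sham m2 thus lay within the smoke arrays for Cyp1a1, Cyp1b1 and Aldh3a1 and above them for Ahrr. Its title puts it in 6 week sham, and the cause of these values was not tested. It is left out of the values below unless all 10 arrays are named, and each main count is given both ways.

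The second is 6 week sham m1, in which liver genes were high. Of 29 liver genes (plasma proteins and enzymes of the hepatocyte, listed after this array had been seen to stand apart), 23 passed the filter on low signal and 22 of these had their highest value there. Their mean deviation from the average of the other 9 sham arrays was -0.23 to 0.06 log2 units in the 5 arrays of 12 week sham, against 3.19 in 6 week sham m1 and -0.20 to 0.69 in the other 4 of 6 week sham. Cps1, the urea cycle enzyme of hepatocytes, had log2 ratios of -1.15 to 0.71 in 12 week sham, against 5.78 in 6 week sham m1. In the other 37 arrays of the series, without 6 week sham m1 and m2, the mean liver level ran from -0.31 to 2.01. The third kind was the pair of arrays of the first label run, 12 week sham m1 and 6 week sham m1, with the lowest surfactant protein C (Sftpc, 1.09 and 2.23) and club cell secretoglobin (Scgb1a1, 0.30 and 0.97) among the 10. The smoke and break arrays of that run were low too, at 1.28 to 2.39 for Sftpc and 0.31 to 1.15 for Scgb1a1. All arrays of the other runs had at least 2.82 and 2.42. Other defining markers of lung had 1.57 to 3.35 (surfactant protein B, Sftpb), 2.32 to 3.74 (Ager, alveolar type I) and 3.80 to 5.66 (Cldn5, endothelium) in the 10 arrays.

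Over 6 further weeks of life and restraint, few genes of the lung had a large difference and none passed the test. The leading genes were Slfn3, a Schlafen family gene of lymphocytes and macrophages, which was about 2-fold higher in 12 week sham, and Pcdha9, a protocadherin, which was lower. As groups, cardiac muscle genes were mostly higher in 12 week sham, and endothelial and alveolar type I genes mostly lower. The mean level of each of these lists overlapped between the groups. The clock genes Per2 and Cry1 were lower in every 12 week sham array than in any 6 week sham array.

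Of 17560 probes tested, 0 were called with all 10 arrays (0%; limma, smallest adjusted p = 0.126) and 0 without 6 week sham m2 (0%, smallest adjusted p = 0.211). At an unadjusted p under 0.05, 1205 probes passed with all 10 arrays (6.86%; 480 higher or 2.73%, 725 lower or 4.13%) and 1293 without 6 week sham m2 (7.36%; 532 higher or 3.03%, 761 lower or 4.33%). The counts under other processing, given in the closing section, were 0 or 1 except when spots marked by the scanner software were left out. The direction of these differences depended on the scaling of the arrays, for 41.1% of the 1293 were higher here, against 79.3% of 2005 after median centring in place of loess, 54.7% of 1387 with the authors' log2 ratios and 57% of 407 after scaling between arrays.

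The differences were small. The median absolute log2 fold change was 0.12, the median half-width of a 95% interval was 0.33, and for 94.11% of the probes the whole interval lay within a 2-fold change in either direction (95.45% with all 10 arrays). Past 2-fold were 86 probes, 22 higher and 64 lower. Of the 64 lower ones, 54 were highest in 6 week sham m1, the array with high liver genes, and 9 were still past 2-fold without it. Of the 22 higher ones, 21 were. With both 6 week sham m1 and m2 left out, 39 probes were higher and 20 lower past 2-fold. In 4 of the 5 label runs both groups had an array, and 2353 probes (13.4%) differed in 1 direction in all 4, 6.05% with higher and 7.35% with lower values in 12 week sham. With 4 runs, signs also agree for many probes that do not differ, so this share is no measure of reproducibility.

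**Figure D1:**
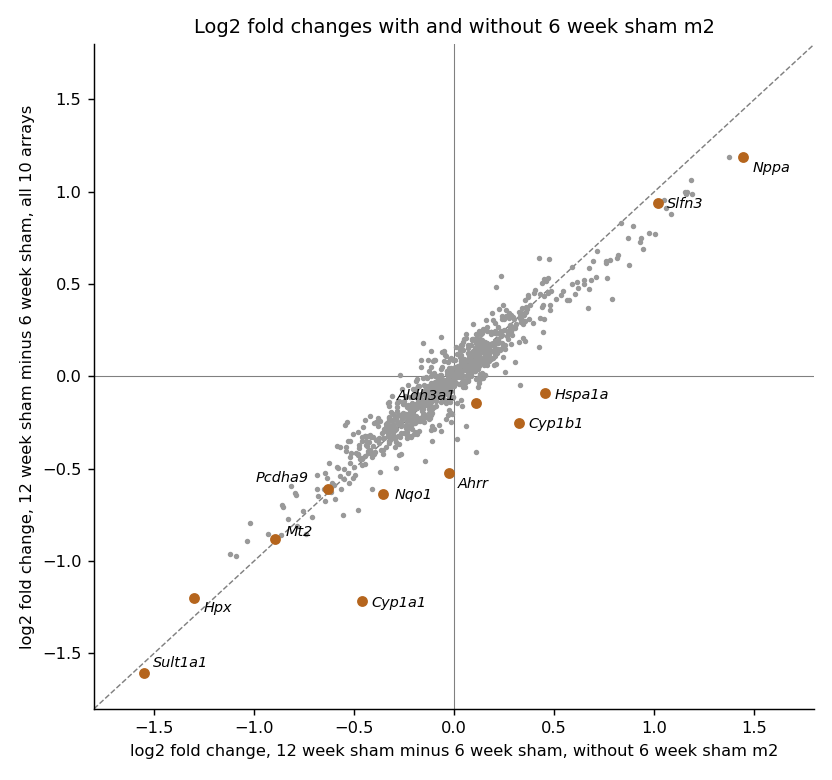
Log2 fold change of 12 week sham minus 6 week sham without 6 week sham m2 (x axis) and with all 10 arrays (y axis), for the 884 genes of the lists and the leading genes; the dashed line marks equal values. Most genes lie near the line, and Cyp1a1 (-0.46 without 6 week sham m2, -1.22 with it), Cyp1b1, Ahrr and Hspa1a lie below it.

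Across probes the log2 fold changes with and without 6 week sham m2 correlated at r = 0.944, a description of probes that share 9 sham arrays. Cyp1a1 had a log2 fold change of -1.22 with all 10 arrays and -0.46 without 6 week sham m2, and Nqo1, a quinone reductase, -0.64 and -0.35. For Cyp1b1 the sign turned, with -0.25 for all 10 arrays and 0.32 without 6 week sham m2. Hspa1a, the inducible Hsp70 chaperone, was at 1.86 to 2.74 in 12 week sham, against 4.59 in 6 week sham m2 and 1.13 to 2.07 in the rest of 6 week sham, and its difference was -0.091 with all 10 arrays and 0.45 without 6 week sham m2.

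Probes without overlap between the groups were few. With all 10 arrays, 29 probes were higher in every 12 week sham array than in any 6 week sham array (0.165%) and 49 were lower (0.279%). Without 6 week sham m2 there were 93 (0.530%) and 73 (0.416%). A selection of those with the smallest p is described next, and none passed the test.

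Slfn3 had log2 ratios of -0.73, -0.65, -0.49, -0.06 and -0.74 in 12 week sham m1 to m5, against -1.45, -1.05, -1.08, -1.36 and -2.19 in 6 week sham m1 to m5. The groups did not overlap, also with 6 week sham m2. The mean was -0.54 ± 0.28 in 12 week sham (SD, n = 5) and -1.52 ± 0.47 in 6 week sham (SD, n = 4). The log2 fold change was 1.02 (95% interval 0.62 to 1.42, limma adjusted p = 0.211). Slfn3 had the smallest p of all probes without 6 week sham m2. Its signal exceeded the negative controls in 3 arrays of each group, and it has close relatives in the same family that a probe might also bind.

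Prr13, a proline-rich protein, was even more uniform. Its log2 ratios were 0.42 to 0.62 in 12 week sham, against -0.22 to 0.35 in all 5 of 6 week sham, a difference of 0.44 with all 10 arrays and 0.37 without 6 week sham m2 (95% interval 0.20 to 0.54, limma adjusted p = 0.282). Both sets of values were well above the negative controls in all 10 arrays.

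Pcdha9, a cell adhesion molecule of the clustered protocadherins, led the lower genes. It had 1.61, 2.17, 2.15, 2.01 and 2.07 in 12 week sham m1 to m5, against 2.24, 2.18, 2.52, 3.00 and 2.52 in 6 week sham m1 to m5, with m2 of each group nearly equal. The log2 fold change was -0.61 with all 10 arrays and -0.63 without 6 week sham m2 (95% interval -0.89 to -0.36, limma adjusted p = 0.211). The genes of this cluster share their last exons, so the signal may not belong to this member alone.

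Eif3i, a subunit of the translation initiation factor eIF3, had -1.60, -1.60, -1.19, -1.30 and -1.33 in 12 week sham, against -1.15, -0.99, -0.85, -0.95 and -1.06 in 6 week sham. Here too the groups did not overlap (log2 fold change -0.41, 95% interval -0.63 to -0.20, limma adjusted p = 0.37). Tiparp, an AhR-induced enzyme that represses the AhR, had -0.76 to -0.45 in 12 week sham, against -0.40 to -0.20 in 6 week sham, a difference of -0.33. Its value in 6 week sham m2, -0.27, lay within those of the rest of 6 week sham, unlike those of Cyp1a1 and Cyp1b1. Acer1, an alkaline ceramidase (-0.42), and Rrm1, the large subunit of ribonucleotide reductase (-0.26), were likewise lower without overlap, also with 6 week sham m2.

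**Figure D2:**
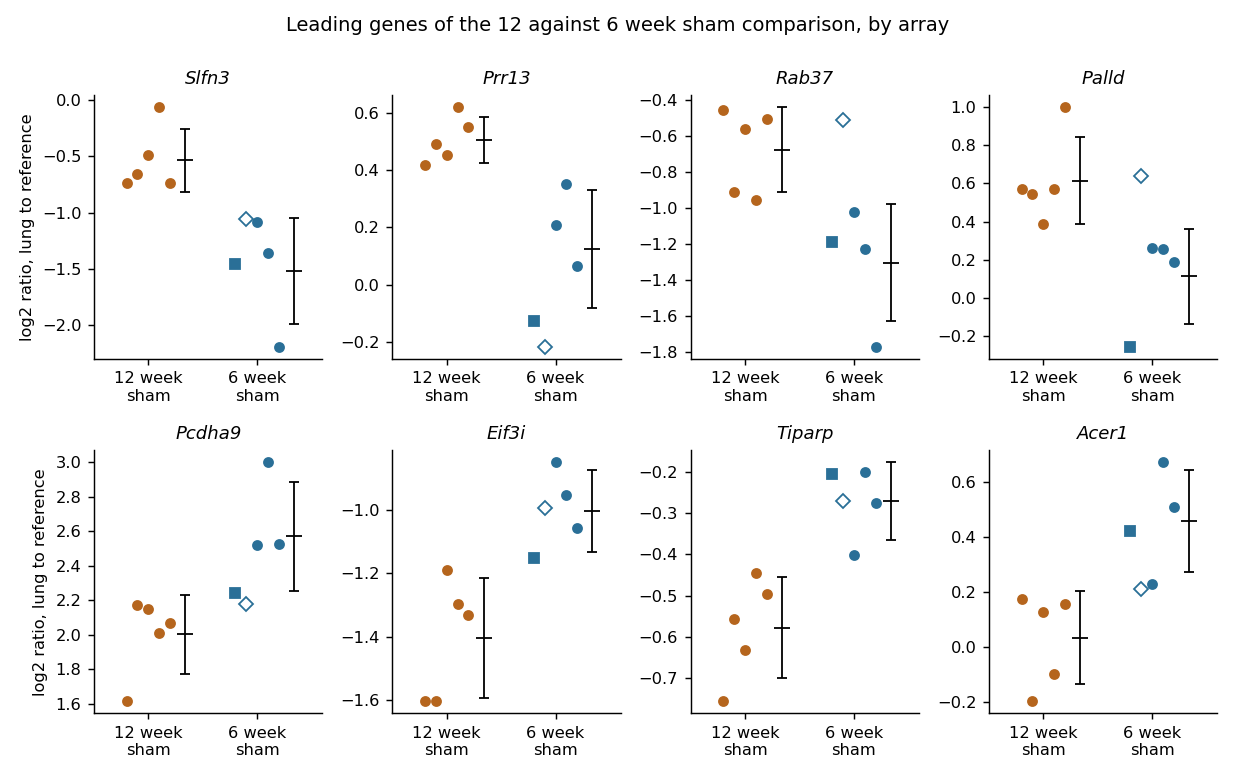
Log2 ratio of lung to reference (y axis) of 8 leading genes in each array of 12 week sham (left, brown) and 6 week sham (right, blue). The open diamond is 6 week sham m2, the square is 6 week sham m1 with high liver genes, and black bars are the mean and SD without 6 week sham m2; Slfn3 and Prr13 lie higher in 12 week sham, and Pcdha9, Eif3i, Tiparp and Acer1 lower, without overlap of the arrays.

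Some genes separated the groups only when 6 week sham m2 was left out. Rab37, a GTPase of secretory vesicles, had -0.95 to -0.46 in 12 week sham, against -1.77 to -1.02 in 6 week sham and -0.51 in 6 week sham m2 (log2 fold change 0.71, 95% interval 0.40 to 1.02, limma adjusted p = 0.265). Its signal exceeded the negative controls in all 5 arrays of 12 week sham and in 2 of these 4 of 6 week sham. Palld, an actin-binding scaffold measured above the controls in all of them, differed by 0.51. Lax1, a membrane adaptor of lymphocytes, also separated the groups, but it exceeded the controls in 2 arrays of 12 week sham and 1 of 6 week sham, and no fold is given. Vldlr, the very low density lipoprotein receptor, had 0.57 to 0.84 in 12 week sham, against 0.14 to 0.45 in 6 week sham, a difference of 0.40. Its other, brighter probe gave a smaller difference of 0.23. Among the lower genes, Ghr, the growth hormone receptor, had -0.12 to 0.28 in 12 week sham, against 0.37 to 0.93 in 6 week sham and -0.54 in 6 week sham m2 (difference -0.48). Gucy1b1, a subunit of the soluble guanylate cyclase that senses nitric oxide in smooth muscle, had 2.63 to 3.59 in 12 week sham, against 3.75 to 4.48 in 6 week sham, with 3.25 in 6 week sham m2 (difference -1.04).

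Beyond these genes, 34 lists of lung cell types and pathways were followed, with 840 different genes after the filter. None of them was called in either fit. At an unadjusted p under 0.05, 31 of them were higher and 78 lower without 6 week sham m2, against 25 higher and 69 lower with it. Of all probes, 3.03% were higher and 4.33% lower at such a p without 6 week sham m2, and 2.73% and 4.13% with it. The lists are described by counts and medians, and each count is to be read beside these shares. The median over all 17560 probes was -0.01, and 51.6% of them were below 0.

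Endothelial genes were the most uniform of the lower lists. Of 30 markers measured, 26 had a log2 fold change below 0, 10 of them with an unadjusted p under 0.05, and 0 of the 4 higher ones did. The list's median was -0.30 without 6 week sham m2 and -0.28 with it, it was below 0 in all 4 label runs (-0.54 to -0.09), and it stayed between -0.38 and -0.23 when any 1 other array was left out. The mean level of the list nevertheless overlapped, from -0.52 to 0.19 in 12 week sham and from -0.44 to 0.66 in 6 week sham.

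Kdr, the main receptor of endothelium for VEGF, had 0.50, 2.00, 0.63, 0.36 and 1.56 in 12 week sham m1 to m5, against 1.33, 0.75, 1.12, 2.07 and 1.78 in 6 week sham m1 to m5, an overlapping difference of -0.64 (95% interval -1.09 to -0.20). Tek, the angiopoietin receptor, had 2.56 to 3.46 in 12 week sham, against 3.48 to 3.81 in 6 week sham without overlap, with 3.39 in 6 week sham m2 (difference -0.60). Esam (-0.56) and Cldn5 (-0.53), both proteins of endothelial junctions, also were lower. For Cldn5 the lowest value of all 10 arrays was in 12 week sham m1 (3.80), and the 2 highest were in 6 week sham m4 and m5 (5.66 and 5.52).

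The epithelial lists ran the same way with smaller medians. Of 13 alveolar type I genes, 11 were below 0 and 4 of them had an unadjusted p under 0.05 (median -0.20, and -0.11 without 6 week sham m5). Clic5, a chloride channel protein, had -0.57, Cldn18, the claudin of alveolar tight junctions, -0.43, and Ager, the receptor RAGE, -0.38. Of 21 genes of alveolar type II cells and surfactant, 16 were below 0 and 4 of these had an unadjusted p under 0.05 (median -0.18, and -0.070 without 12 week sham m1). Lamp3, a protein of lamellar bodies, had 1.31 to 2.10 in 12 week sham, against 2.01 to 3.64 in 6 week sham (-0.85), and Nkx2-1, the lung lineage factor, had 0.31 to 1.35 and 0.81 to 1.41 (-0.45). Each of these 5 genes overlapped between the groups.

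In the airway lists, 17 of 24 club cell and secretory genes were below 0, 7 with an unadjusted p under 0.05 (median -0.21), and 14 of 22 ciliated cell genes, 3 with such a p (median -0.16). Leaving out 1 array moved the secretory median between -0.33 (without 12 week sham m4) and -0.11 (without 6 week sham m4), and the ciliated median between -0.19 (without 12 week sham m4) and -0.076 (without 12 week sham m2). Cckar, a cholecystokinin receptor on the secretory list, had -1.02, and Foxj1, the master regulator of motile cilia, -0.63. Bpifb1, a secreted protein of the airway lining, ran against the rest with 1.05, at 0.33 to 2.22 in 12 week sham, against -0.37 to 0.88 in 6 week sham, where 2 of the 4 arrays exceeded the negative controls. The lowest alveolar type I level of all was -0.50 in 12 week sham m1, followed by -0.35 in 6 week sham m1 of the same label run.

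Cardiac muscle genes differed most in size. Of the 30 measured, 28 were above 0, 10 with an unadjusted p under 0.05, and the median was 0.72 without 6 week sham m2 and 0.56 with it. This list followed single mice. Its mean level was 0.30, 0.45, -0.27, 0.93 and -0.14 in 12 week sham m1 to m5, against 0.024, 0.53, 0.043, -0.84 and -1.03 in 6 week sham m1 to m5. The 6 week sham mice m4 and m5 were thus far lower than all other mice, and 6 week sham m2 was among the high ones. By run the median difference ranged from -0.24 to 2.23, above 0 in 3 of 4 runs, and leaving out 6 week sham m5 brought the median to 0.37.

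Nppa, the atrial natriuretic peptide, showed this spread, with 1.96, 2.16, 0.45, 2.60 and -0.12 in 12 week sham m1 to m5, against 0.42, 1.81, 0.22, -0.17 and -0.65 in 6 week sham m1 to m5. It exceeded the negative controls in 4 arrays of 12 week sham and, of the 4 of 6 week sham without m2, in 1, so no fold is given. Mybpc3, the cardiac myosin-binding protein, had 1.37 (0.13 to 2.62) and 0.76 without 6 week sham m5. Cox6a2, the muscle form of a cytochrome oxidase subunit, had 1.19, and Ttn, the giant spring of the sarcomere, 1.18 on its brightest probe and -0.08 to 1.18 over its 5 probes. Of 14 skeletal muscle genes, 11 were above 0, 3 with an unadjusted p under 0.05 (median 0.20). This list rested largely on 12 week sham m1, with a median of 0.053 without it. Atp2a1, the calcium pump of fast muscle, had 1.09, 0.63, 0.19, 0.64 and 0.01 in 12 week sham, against -0.08, -0.11, -0.87 and -0.48 in 6 week sham m1, m3, m4 and m5 and 0.25 in 6 week sham m2 (difference 0.89, limma adjusted p = 0.462), above the negative controls in 5 arrays of 12 week sham and 3 of these 4 of 6 week sham. Of the smooth muscle and pericyte genes, 13 of 21 were above 0 (median 0.11, and -0.026 without 6 week sham m5). Actg2, smooth muscle actin of the gamma type, had 0.48 and Tpm1, a tropomyosin also of cardiac muscle, 1.16. How much of these differences came with the amount of vein muscle in the piece of lobe was not tested.

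**Figure D3:**
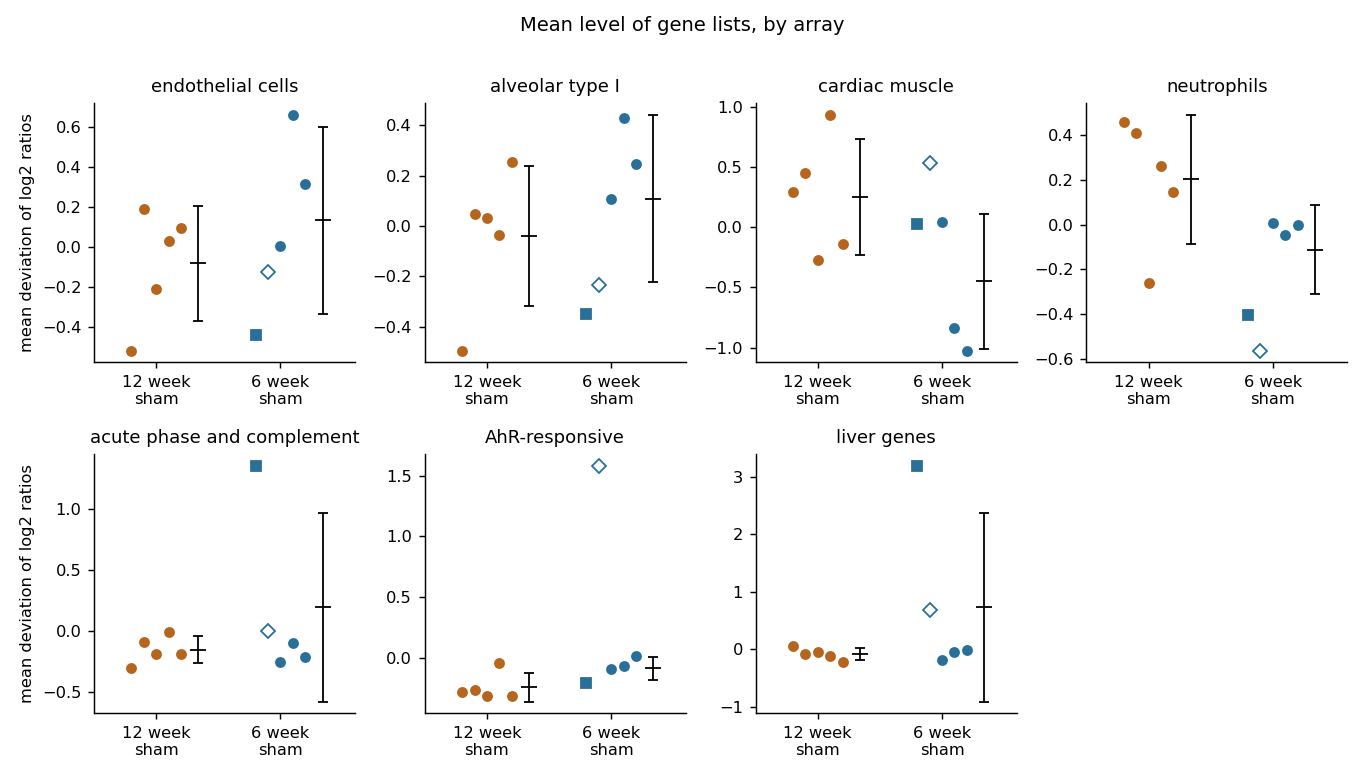
Mean deviation of the log2 ratios of a list's genes from their mean over the sham arrays (for liver genes without 6 week sham m1 in that mean; y axis, log2 units) in each array of 12 week sham (left, brown) and 6 week sham (right, blue). Markers as for single genes, with the open diamond for 6 week sham m2 and the square for 6 week sham m1; 6 week sham m1 is at 3.19 for liver genes, 6 week sham m2 at 1.58 for AhR-responsive genes, and the other lists overlap between the groups.

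The growth genes of the young lung, collagen and matrix genes and proliferation genes, which in mice decline steeply after birth, had medians near 0. Of 46 collagen and matrix genes, 23 were above and 23 below 0 (median -0.01), 3 and 2 of these with an unadjusted p under 0.05. Bgn, the proteoglycan biglycan, had -0.24, -0.64, -0.45, -0.88 and 0.07 in 12 week sham, against -0.48, -0.45, -0.85, -1.26 and -1.35 in 6 week sham (difference 0.62, 95% interval 0.30 to 0.94, limma adjusted p = 0.37). Mfap2, a protein of elastic microfibrils, had -0.44 with overlap. Of 45 proliferation genes, 29 were below 0 and 3 had an unadjusted p under 0.05, 1 higher and 2 lower (median -0.06). The sign of the list medians of the collagen and proliferation genes turned under median centring.

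Of 20 growth and imprinted genes, 14 were below 0 (median -0.08). Igf1, insulin-like growth factor 1, which the liver also makes in quantity, had -1.61 to -0.13 in 12 week sham, against 2.82 in 6 week sham m1 and -1.25 to -0.78 in the other 4 of that group. Its log2 fold change was -0.79, and 0.22 without 6 week sham m1. The growth hormone receptor Ghr had -0.34 without that array. Of 26 genes of senescence and p53, 12 were above 0 (median -0.02). Cdkn1a, the cell cycle inhibitor p21, had 0.44 and Plk2, a p53 target kinase, -0.51, both with overlap.

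Of the clock genes, 21 were measured and 3 separated the groups without overlap once 6 week sham m2 was left out, 1 higher (0.530% of all probes) and 2 lower (0.416%). Per2 was at 2.68, 2.81, 2.57, 2.76 and 2.72 in 12 week sham m1 to m5, against 2.98, 3.38, 3.37, 3.57 and 3.45 in 6 week sham m1 to m5, a tight band below a higher one. Its log2 fold change was -0.64 (95% interval -1.15 to -0.13, limma adjusted p = 0.579). Cry1 had -0.57, -0.05, 0.05, -0.08 and -0.38 in 12 week sham, against 0.36, 0.61, 0.16, 0.06 and 0.69 in 6 week sham, likewise without overlap of all 10 arrays (difference -0.49, 95% interval -0.88 to -0.11).

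Arntl (Bmal1), which acts opposite to these repressors in the clock, had -0.16, -0.53, -0.33, -0.44 and -0.26 in 12 week sham m1 to m5, against -1.24, -0.35, -0.59, -1.11 and -0.88 in 6 week sham m1 to m5. The groups did not overlap without 6 week sham m2. Its signal exceeded the negative controls in 2 arrays of 12 week sham and in 0 of 6 week sham, so no fold is given. The other clock genes showed no common direction, as 9 of 21 were above 0 (median -0.08). The sources used here do not give the time of day at which a mouse was killed.

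**Figure D4:**
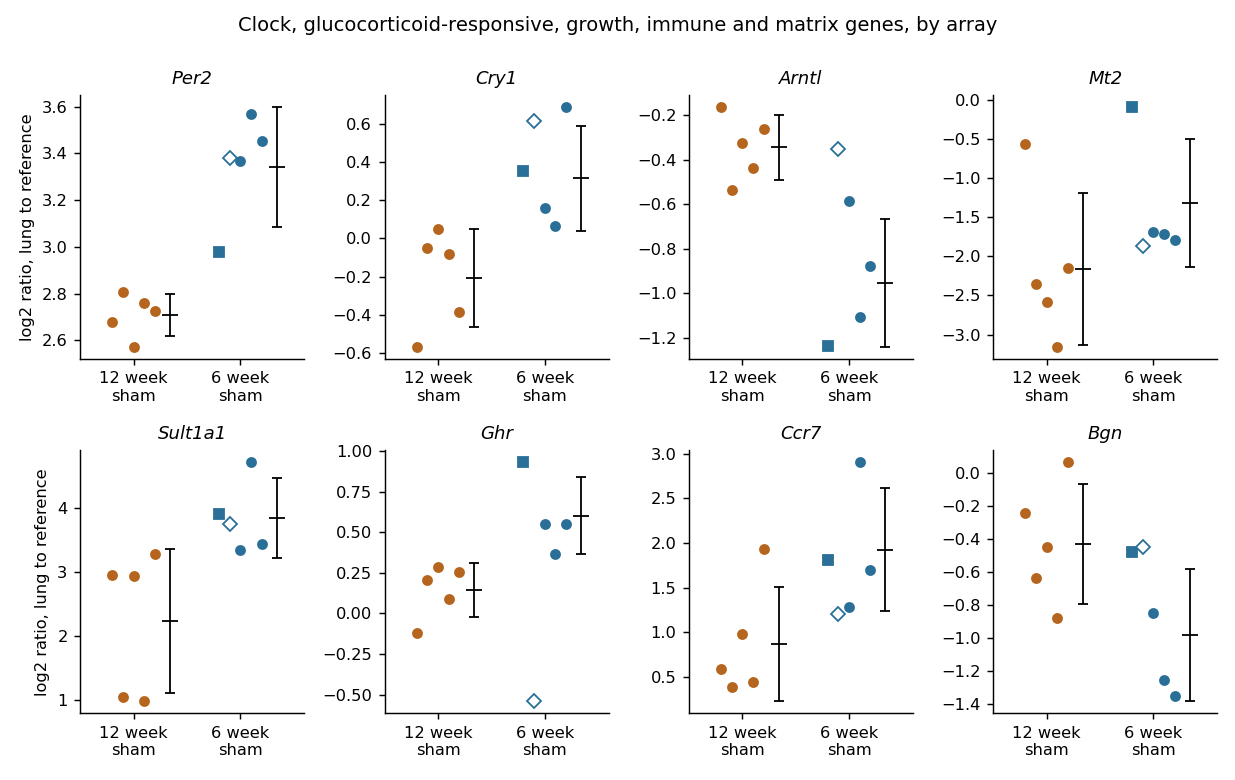
Log2 ratio of lung to reference (y axis) of 8 genes in each array of 12 week sham (left, brown) and 6 week sham (right, blue), with the open diamond for 6 week sham m2, the square for 6 week sham m1 and black bars for the mean and SD without 6 week sham m2. Per2, Cry1 and Sult1a1 lie lower in 12 week sham without overlap of the 10 arrays, and Arntl was above the negative controls in 2 of the 10.

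Glucocorticoid-responsive genes were mostly lower in 12 week sham. Of 32 genes, 25 were below 0, 7 with an unadjusted p under 0.05, and the median was -0.14 (-0.22 with 6 week sham m2) and below 0 in all 4 runs. The mean level of the list overlapped, from -0.34 to 0.11 in 12 week sham and from -0.02 to 0.29 in 6 week sham. Mt2, a metallothionein, had -0.56, -2.36, -2.58, -3.15 and -2.15 in 12 week sham m1 to m5, against -0.09, -1.87, -1.69, -1.71 and -1.79 in 6 week sham m1 to m5. The m1 arrays, of the first label run, were the highest of their groups, and within each of the 4 runs 12 week sham was lower (difference -0.90, 95% interval -1.43 to -0.36, limma adjusted p = 0.514). Sult1a1, a sulfotransferase, had 2.94, 1.05, 2.93, 0.98 and 3.28 in 12 week sham, against 3.89, 3.75, 3.34, 4.71 and 3.43 in 6 week sham. The 10 arrays did not overlap, and 12 week sham m2 and m4 were far below the other 3 of their group (difference -1.55, 95% interval -3.02 to -0.07). Of genes that the glucocorticoid receptor is best known to induce, named after their values were seen, Tsc22d3 had -0.37, Per1 -0.38 and Fkbp5 -0.01, and the receptor gene Nr3c1 had -0.08.

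Of the immune lists, the antigen-presenting cells held the largest single differences. Ccr7, the receptor that leads dendritic cells to lymph nodes, had 0.58, 0.38, 0.98, 0.44 and 1.93 in 12 week sham, against 1.81, 1.21, 1.28, 2.91 and 1.70 in 6 week sham, lower in all but 12 week sham m5 (difference -1.09, 95% interval -1.75 to -0.43, limma adjusted p = 0.514). H2-Aa, an MHC class II chain, had -0.82 and Zbtb46, the factor of classical dendritic cells, -0.68. Of the 21 genes of this list 13 were below 0, 5 with an unadjusted p under 0.05 (median -0.06, which turned to 0.03 under median centring). Ctsl, a lysosomal protease, had -0.50, while the 34 macrophage and lysosome genes had a median of -0.02, with 5 lower at an unadjusted p under 0.05.

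Neutrophil genes were the 1 immune list with a positive median of size (0.23, 11 of 13 above 0). The median was 0.18 without 6 week sham m4 and 0.43 without 12 week sham m3, and by run it ranged from -0.16 to 0.72. The mean level overlapped, from -0.26 to 0.46 in 12 week sham and from -0.40 to 0.01 in 6 week sham. In this list 1 gene alone had an unadjusted p under 0.05. That was Mmp9, the gelatinase of neutrophil granules, with -0.53, -0.18, -0.81, -0.40 and 0.025 in 12 week sham, against -1.25, -1.37, -0.36, -0.71 and -1.34 in 6 week sham (difference 0.47, 95% interval 0.13 to 0.81). S100a8, a calgranulin, had 0.42 with a wide interval of -0.54 to 1.38. None of the 20 B cell genes and 1 of the 28 T and NK cell genes had an unadjusted p under 0.05.

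AhR-responsive genes were measured as a check of the labels, by which neither group breathed smoke. Without 6 week sham m2 their mean level was -0.32 to -0.04 in 12 week sham, against -0.21 to 0.01 in 6 week sham, and 6 week sham m2 stood at 1.58. Of the 9 genes, 7 were below 0 without 6 week sham m2 (median -0.22, and -0.098 with 6 week sham m1 also left out) and 9 with it (median -0.32). Nqo1 had -1.57, -1.68, -1.75, -1.61 and -1.94 in 12 week sham, against -1.70, -1.44, -1.13 and -1.01 in 6 week sham m1, m3, m4 and m5 and 0.55 in 6 week sham m2. Of those 4, 3 lay above all of 12 week sham (difference -0.35, 95% interval -0.62 to -0.09). Cyp1b1 (0.32) and Aldh3a1 (0.11) had intervals on both sides of 0.

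Il6, the inflammatory cytokine, had -2.34, -1.96, -1.02, -2.54 and -1.64 in 12 week sham, against -1.35, -1.03, -1.38 and -1.89 in 6 week sham m1, m3, m4 and m5 and -0.32 in 6 week sham m2, with overlap (difference -0.55, 95% interval -1.14 to 0.03, and -0.75 with all 10 arrays). It exceeded the negative controls in 3 arrays of 12 week sham and in all 5 of 6 week sham. Its feedback target Socs3 had -0.01 (95% interval -0.25 to 0.24).

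Genes of the acute phase and complement, made mainly by the liver, depended on 6 week sham m1. The median of 17 genes was -0.46, and it was 0.14 without that array. Hpx, the haem-binding hemopexin, was at -0.06 to 0.39 in 12 week sham, against 4.63 in 6 week sham m1 and 0.04 to 0.64 in the other 4 of its group, and its log2 fold change of -1.30 became -0.15 without 6 week sham m1. Fgg, a fibrinogen chain, had -0.86 and 0.42 without it.

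A further 2 pairs of groups differ by the same 6 weeks and share no array with the sham groups, namely 12 and 6 week break sham (5 arrays each) and 12 and 6 week smoke (4 and 5). Smoke mice had the ages of the sham mice. Break sham mice were sampled after a further break of 6 weeks. They were 26 to 28 weeks old in 12 week break sham and 20 to 22 weeks in 6 week break sham. In break sham, 0 of 17560 probes were called (0%, 8.05% at an unadjusted p under 0.05), and in smoke 1 was (0.00569%, 6.12% at an unadjusted p under 0.05), the mitotic kinesin Kif20a. The test of the difference between the sham contrast and either other contrast called 0 probes (limma; 954 and 853 at an unadjusted p under 0.05, or 5.43% and 4.86%). When each contrast was fitted on its own arrays, the log2 fold changes of sham correlated across the 17560 probes at r = 0.212 with those of break sham and r = 0.185 with those of smoke, a description of probes that share the platform and the label runs.

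Few leading genes had like values in the other mice. Most were picked by their difference in sham, so the values of sham and of the other mice do not stand on equal terms. Slfn3 had 1.02 in sham, against 0.35 in break sham and 0.21 in smoke. Pcdha9 had -0.63 in sham, against -0.24 in break sham and -0.16 in smoke. Per2 had -0.64 in sham, beside -0.64 in break sham and -0.32 in smoke. Eif3i had -0.41 in sham, against 0.07 in break sham and -0.05 in smoke, and Mt2 had -0.90 in sham, against 0.36 in break sham and -0.10 in smoke. Sult1a1 had -1.55 in sham, beside -1.61 in smoke and -0.51 in break sham. Il6 had -0.55 in sham, against 1.13 in smoke, a difference between the contrasts that did not pass the adjusted test.

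**Figure D5:**
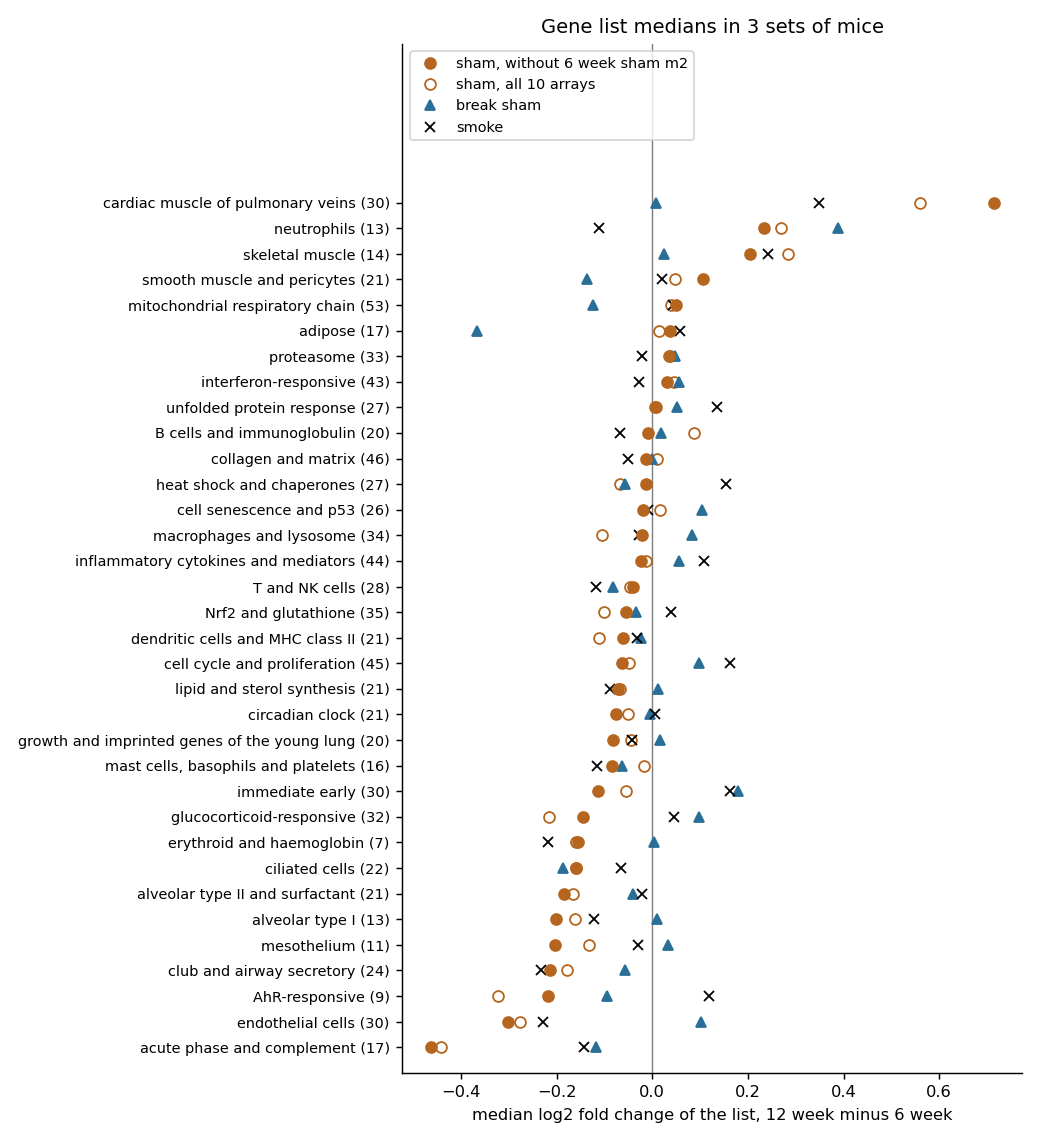
Median log2 fold change of 12 week minus 6 week (x axis) for 34 gene lists, with the number of genes measured in parentheses, in sham without 6 week sham m2 (filled circles), sham with all 10 arrays (open circles), break sham (triangles) and smoke (crosses). Cardiac muscle genes are at 0.72 in sham, 0.35 in smoke and 0.01 in break sham, and endothelial genes at -0.30, -0.23 and 0.10.

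The list medians differed likewise between the sets of mice. Endothelial genes had -0.30 in sham and -0.23 in smoke but 0.10 in break sham, cardiac muscle genes 0.72, 0.35 and 0.01, and alveolar type I genes -0.20, -0.12 and 0.01. Neutrophil genes had 0.23 in sham and 0.39 in break sham but -0.11 in smoke, and glucocorticoid-responsive genes -0.14, against 0.05 in smoke and 0.10 in break sham. Differences between these medians were not tested.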

How the data were processed

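Lung RNA (Cy5) and universal mouse reference RNA (Cy3) were hybridized in 1 orientation by the authors, and the deposited scanner files hold spot and background intensity values as scanned, without background correction. Their normalized log2 ratios, which the authors deposited too, were used here as an alternative. The 22575 spots of an array include 1257 controls and carry 20868 gene probes, of which 18235 have 1 symbol, 30 several and 2603 none (tested, not named). Symbols of 19 probes were updated through RefSeq. Medians were corrected by normexp (offset 50) and normalized by loess within arrays, control spots at weight 0. Probes with Cy5 above the array's threshold (trimmed mean plus 3 trimmed SD of negative controls, 5% trimmed) in 4 or more arrays of any group were kept (17560).

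All 39 arrays entered 1 limma model (R 4.3.3, limma 3.58.1, data.table version 1.17.8) of 8 groups with the label run as a block, once with and once without 6 week sham m2. The study's model was blocked on hybridization and exposure dates; the runs were read from the sequence of exposure dates in the labels and may differ from its blocks. p-values were adjusted over all kept probes, threshold 0.05. Spots at the scanner limit were kept. The number of arrays limits the precision. The fit was tested on simulated data.

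The comparison, the gene lists and the rule for naming genes were chosen with earlier results of these data known. Genes were picked from the 15 probes per direction and fit with the smallest p among those without overlap. Not all of these are described, and some with a smaller p than a described gene are left out. Also named were up to 4 members per list with the largest difference, AhR-responsive genes, Il6 and Socs3. Others are marked. A list member with several probes is given by the brightest, and a gene picked by its p by the probe picked. Alternatives covered background correction, scaling, spot means, marked spots, filters, blocks, arrays in the fit, weights, variance model and leaving out arrays.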

Additional observations from a re-analysis of the deposited data

Results flagged for a closer look

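In 20 of 204 groups examined (4 or 5 arrays each, once with and once without 6 week sham m2), 1 array lay farther from the rest than Dixon's 95% critical value allows. Chance does this in about 1 of 20 groups of unselected genes, and several groups here share arrays. Many of these genes were named for a large difference, which 1 outlying array can give. The count is therefore not to be read against that share.

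The array 6 week sham m2 was far above the rest of its group for Hspa1a (4.59, others 1.13 to 2.07), Hsph1 (1.59, others -0.36 to 0.13), Cyp1b1 (2.00, others -1.74 to -1.16), Ahrr (2.52, others -0.55 to -0.04) and Aldh3a1 (1.25, others -0.75 to -0.23). Hspa1a and Hsph1 are heat shock genes and the other 3 are AhR-responsive.

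The array 6 week sham m1 stood apart for Igf1 (2.82, others -1.25 to -0.78), Hpx (4.63, others 0.04 to 0.64), Fgg (5.31, others -0.13 to 1.30) and Mt2 (-0.091, others -1.87 to -1.69), each with and without 6 week sham m2, and for Palld without 6 week sham m2 (-0.25, others 0.19 to 0.26). The array 12 week sham m1, of the same label run, stood apart for Trf, transferrin (1.96, others 2.54 to 2.74), Lamp3 (1.31, others 1.89 to 2.10), Cldn5 (3.80, others 4.51 to 4.80) and Hspa1a (2.74, others 1.86 to 2.11). The remaining 2 were Aspdh in 12 week sham m4 (-0.67, others -0.115 to 0.055) and Aldh3a1 in 6 week sham m4 without 6 week sham m2 (-0.75, others -0.28 to -0.23).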

How the results depend on the processing

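The count of called probes was 0 under the alternatives run, except as follows. Leaving out spots marked by the scanner software gave 19 with all 10 arrays and 19 without 6 week sham m2, 16 of them shared. Of the 19 without 6 week sham m2, 17 had fewer than 9 sham arrays. Pcdha9, also among the 19, had all 9 and a value in 37 of the 38 arrays (limma adjusted p = 0.0408). Among the 3920 probes with a value in all 38 arrays 1 was called, Vldlr on the probe described above. Leaving out both sham arrays of the first label run, chosen after seeing the data, gave 1 with all 10 arrays (smallest adjusted p 0.0464) and 0 without 6 week sham m2. Leaving out 1 array at a time gave 0 to 1 in either fit, the 1 being Pcdha9 without 12 week sham m4 (adjusted p = 0.0291) with all 10 arrays and Slfn3 without 6 week sham m3 (1.21, adjusted p = 0.0285) without 6 week sham m2. The difference between sham and smoke contrasts had 1 with array weights (Kif20a). Probes at an unadjusted p under 0.05 numbered 459 to 1916 with all 10 arrays and 407 to 2005 without 6 week sham m2 over these alternatives, fewest after scaling between arrays and most after median centring; without the block they were 752 and 730. With all 10 arrays, 39.8% were higher, against 78.6% after median centring and 52.9% with the authors' ratios or scaling.

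Of 1088 values for named genes, 1069 kept direction and side of the threshold. Leaving out marked spots was not among the settings behind these values. With 6 week sham m2, the sign turned for Hspa1a (-0.091), Cyp1b1 (-0.25) and Aldh3a1 (-0.15). Leaving out 1 array gave -1.22 to 0.22 for Igf1, -1.33 to 0.42 for Fgg, -0.20 to 0.24 for Ahrr and -0.10 to 0.12 for Socs3. Ahrr was 0.011 without background correction, 0.027 with the authors' ratios and 0.14 with array weights, and Socs3 was 0.16 after median centring, 0.022 without the block and 0.020 with the sham arrays alone. The causes were not tested. No paired analysis was possible because the numbers in the titles are unique to a mouse and pair none. Without 6 week sham m2, the median 95% interval reached 0.33 log2 units to either side.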

Other observations

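Lists not described above had medians from -0.20 (mesothelium) to 0.05 (mitochondrial respiratory chain) in 12 week sham minus 6 week sham without 6 week sham m2. Interferon-responsive genes had a median of 0.03 (25 of 43 above 0), the mitochondrial respiratory chain 0.05 (32 of 53), the proteasome 0.04 (23 of 33) and the unfolded protein response 0.01 (14 of 27). Psmd8, a proteasome subunit, had 0.28, and Sdf2l1, a chaperone partner of the endoplasmic reticulum, 0.36. Immediate early genes, which respond within minutes to stimuli, were more often lower, 23 of 30 below 0 with a median of -0.11 and none with an unadjusted p under 0.05, led by the zinc finger factor Egr1 (-0.54), while their median was 0.18 in break sham and 0.16 in smoke.

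Nrf2 and glutathione genes had a median of -0.05 (18 of 35 below 0) and 0.05 after median centring. Mast cell, basophil and platelet genes had -0.08, with Kit, the stem cell factor receptor, at -0.52 and Hdc, the histamine-forming enzyme, at -0.38. Lipid and sterol synthesis had -0.07, mesothelium -0.20, heat shock genes -0.01, inflammatory mediators -0.02, and adipose genes 0.04, against -0.37 in break sham. The 7 erythroid genes had a median of -0.15, and Alas2, the enzyme of haem synthesis in red cells, had -0.46. Leaving out 1 array turned the sign of the medians of the interferon, mitochondrial, unfolded protein, Nrf2, lipid, heat shock, inflammatory, adipose and erythroid lists.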
